A study of Homo sapiens with 6 samples.

Results

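The genes described here are 8 human splicing factor genes at which METTL3 or PRMT5 chromatin peaks were called in prostate cancer cells. They are SNRPA and SNRPE of the spliceosome, the hnRNP genes PTBP1, HNRNPL, HNRNPM and HNRNPU, the STAR gene KHDRBS1 and the SR gene SRSF11. They were chosen by the measured peaks themselves: each has, in at least 1 list, an entry with its summit inside the gene or within 3 kb of its start or end on hg38, so having an entry is not a finding. The 8 were taken from 20033 protein-coding genes, and 12 of the 10267 entries on chromosomes 1 to 22, X and Y lay at them.

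The study profiled LNCaP, an androgen-responsive line from a lymph node metastasis, and PC3, an androgen-independent line from a bone metastasis. Each line gave 1 library with a PRMT5 antibody, 1 with a METTL3 antibody and 1 control, titled IgG and listed with a secondary antibody, 6 libraries in all. The assay used an in-situ ChIP kit in which a protein G-Tn5 transposase cuts chromatin where an antibody sits, with 100000 cells and 16 PCR cycles per library. No treatment or genotype change is named for any group. The values used are the 4 lists of peaks that the authors called for the antibody libraries. The control of the same line was the background for each list, which means that both lists of a line rest on 1 control library.

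Before a messenger RNA leaves the nucleus, the spliceosome cuts out its introns. The spliceosome is built from small nuclear ribonucleoproteins, most with an snRNA on a ring of Sm proteins. SR proteins tend to promote and hnRNP proteins tend to repress the use of nearby exons. PRMT5 is an arginine methyltransferase that modifies the Sm proteins encoded by SNRPB, SNRPD1 and SNRPD3, and METTL3 is the enzyme that methylates adenosines in RNA to N6-methyladenosine. The lists record where on DNA a library gave signal; they hold no RNA level and no protein modification.

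Of the 8 genes, 4 had an annotated start window reached by a PRMT5 entry, and these stretches are printed to show which bases the entries covered. Each is the 250 bases before a RefSeq start (GRCh38.p14, plus strand), 5′ to 3′, with the bases inside the entry in capitals. SNRPA lies at chr19:40750953-40751202, PTBP1 at chr19:797202-797451, HNRNPM at chr19:8444725-8444974 and KHDRBS1 at chr1:32013618-32013867.
SNRPA, PC3 PRMT5 entry: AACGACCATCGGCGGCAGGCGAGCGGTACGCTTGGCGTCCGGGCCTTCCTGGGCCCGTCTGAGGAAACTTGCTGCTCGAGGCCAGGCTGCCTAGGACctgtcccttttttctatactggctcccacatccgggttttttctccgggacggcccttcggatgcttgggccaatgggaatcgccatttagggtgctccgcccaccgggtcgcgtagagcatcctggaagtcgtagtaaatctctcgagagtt
PTBP1, LNCaP PRMT5 entry: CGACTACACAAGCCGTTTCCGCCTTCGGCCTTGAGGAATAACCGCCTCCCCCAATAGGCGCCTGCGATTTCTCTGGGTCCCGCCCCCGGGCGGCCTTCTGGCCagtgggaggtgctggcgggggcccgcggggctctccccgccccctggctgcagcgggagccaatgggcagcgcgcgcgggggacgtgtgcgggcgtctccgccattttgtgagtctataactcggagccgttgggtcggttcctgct
HNRNPM, PC3 PRMT5 entry: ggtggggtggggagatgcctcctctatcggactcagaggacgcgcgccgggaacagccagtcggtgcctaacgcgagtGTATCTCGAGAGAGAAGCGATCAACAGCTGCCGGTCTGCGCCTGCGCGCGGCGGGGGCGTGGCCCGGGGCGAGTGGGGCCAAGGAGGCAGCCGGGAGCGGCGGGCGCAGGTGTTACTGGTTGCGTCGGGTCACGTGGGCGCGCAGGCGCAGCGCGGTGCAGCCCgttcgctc
KHDRBS1, PC3 PRMT5 entry: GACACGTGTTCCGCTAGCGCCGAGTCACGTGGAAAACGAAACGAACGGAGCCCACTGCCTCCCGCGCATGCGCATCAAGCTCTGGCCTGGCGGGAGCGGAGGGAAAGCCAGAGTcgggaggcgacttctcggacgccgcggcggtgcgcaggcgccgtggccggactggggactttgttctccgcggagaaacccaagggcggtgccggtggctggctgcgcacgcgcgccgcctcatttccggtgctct
The entries covered 97 of the 250 bases at SNRPA, 103 at PTBP1, 164 at HNRNPM and 114 at KHDRBS1. The HNRNPM entry lay wholly within the stretch, and the other 3 reached into it from further upstream.

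The PRMT5 lists held 9 entries at 6 of the 8 genes, and the PC3 METTL3 list held 3 entries at 3 genes. The LNCaP PRMT5 list had an entry at SNRPA, PTBP1 and HNRNPL, 3 of the 8, where 3.08% of all protein-coding genes had one. The PC3 PRMT5 list had an entry at SNRPA, SNRPE, PTBP1, HNRNPM and KHDRBS1, 5 of the 8, where 4.59% of all protein-coding genes had one. The PC3 METTL3 list had an entry at HNRNPL, HNRNPU and SRSF11, 3 of the 8, where 11.6% of all protein-coding genes had one. The LNCaP METTL3 list, the shortest, had none, and 0.389% of all protein-coding genes had one there (0.0749% at an end and 0.0316% at an annotated start). Because the genes were picked for these entries, the counts are set beside the shares for all genes as a description only. With 1 library per group and unknown read depths there is no spread between replicates and no test, and a missing entry does not show that signal was absent.

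**Figure D1:**
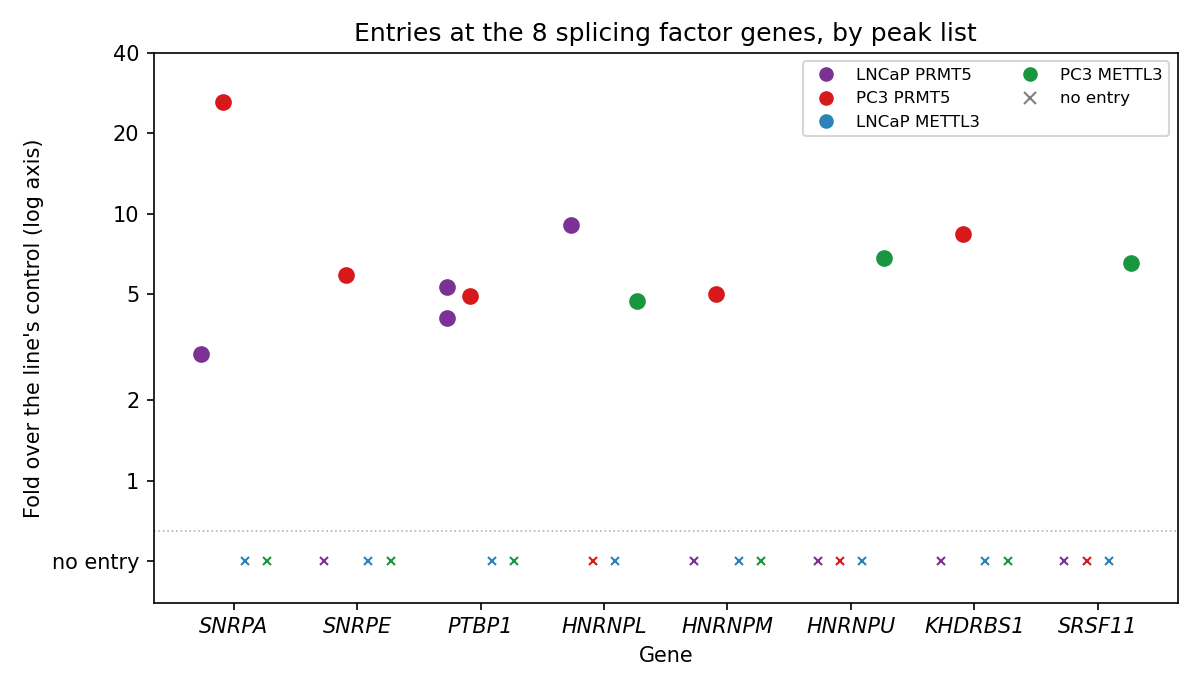
The fold of each entry over the control of its line, on a log axis, is plotted for the 8 genes, with 1 point per entry coloured by peak list; crosses below the dotted line mark a gene with no entry in a list. Folds are read within a list: among the 5 PC3 PRMT5 points the one at SNRPA, of fold 26.2, is the highest, and among the 4 LNCaP PRMT5 points the one at SNRPA, of fold 2.98, is the lowest.

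SNRPA encodes the A protein of the U1 particle, which recognises the 5′ splice site. In the LNCaP PRMT5 list its entry had a fold of 2.98, a −log10 q of 2.26 and a width of 289 bp. In the PC3 PRMT5 list its entry had a fold of 26.2, a −log10 q of 56.6 and a width of 800 bp. Neither METTL3 list had an entry there. The fold is the peak caller's ratio over the signal expected from the control, and it is read only within a list: the LNCaP entry ranked 939 of 980 by fold and the PC3 entry 6 of 1661. The whole LNCaP entry lay inside the PC3 entry (chr19:40750250-40751049), and their summits were 29 bp apart. Both summits fell between SNRPA and the start of ACTMAP, a gene on the other strand that runs the opposite way. The PC3 summit was 608 bp before the SNRPA start and 118 bp before the ACTMAP start, and the LNCaP summit was 579 bp and 147 bp before them. Both entries covered the ACTMAP start, and neither reached the SNRPA start. When each entry was counted only for its nearest gene, both went to ACTMAP.

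SNRPE encodes SmE, a member of the Sm ring that surrounds the snRNAs of U1, U2, U4 and U5. It had an entry in the PC3 PRMT5 list alone, of fold 5.91 and −log10 q 3.58, at chr1:203861403-203861568. That entry ranked 810 of 1661, near the middle of the list, and its summit lay 185 bp before the gene's outermost start. The RefSeq start window of SNRPE is set at a start further in, 433 bp past the summit, and the entry did not reach the window.

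PTBP1 encodes the polypyrimidine tract-binding protein, which represses many exons outside neurons. It was the second gene with an entry in both PRMT5 lists. LNCaP had an entry of fold 5.30 and −log10 q 6.52 with its summit 331 bp before the start, and a weaker one of fold 4.09 and −log10 q 1.77 with its summit 1177 bp before the start. PC3 had an entry of fold 4.91 and −log10 q 5.80 with its summit 380 bp before the start. The stronger LNCaP entry and the PC3 entry shared 126 bp, 48.3% of the LNCaP one and 66.3% of the PC3 one, and their summits were 49 bp apart. Both ranked in the lower part of their lists, 733 of 980 in LNCaP and 1273 of 1661 in PC3. No other gene had an end within 3 kb of these summits.

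HNRNPL encodes a protein that binds CA-rich RNA, and it was the gene among the 8 with entries from both antibodies, in different lines and at opposite ends. The LNCaP PRMT5 entry had a fold of 9.10 and a −log10 q of 10.2 and ranked 216 of 980. Its summit was inside the gene, 1789 bp past the outermost start and 572 bp before a second annotated start. The PC3 METTL3 entry had a fold of 4.70 and a −log10 q of 2.84 and ranked 4770 of 7453. Its summit was 1177 bp before the gene's end, also inside the lncRNA locus LOC124904712. The summits were 13.0 kb apart, so the entries mark separate places. They also share neither antibody nor control.

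HNRNPM, whose protein regulates alternative exons, had an entry in the PC3 PRMT5 list alone, of fold 5.01 and −log10 q 2.35. It was 164 bp wide, the smallest width in that list, shared by 17.3% of its entries, and its summit was 155 bp before the start, the closest of the 12. KHDRBS1 encodes Sam68, an RNA-binding protein of the STAR family that takes signals from kinases to splicing. Its PC3 PRMT5 entry had a fold of 8.38 and a −log10 q of 9.17, ranked 197 of 1661 and had its summit 268 bp before the start. After SNRPA, it was the highest of the PC3 PRMT5 entries at these genes. Neither gene had an entry in LNCaP, and neither summit had the end of another gene within 3 kb.

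HNRNPU, whose product binds RNA and nuclear scaffold DNA, and SRSF11, whose product is an SR protein also known as p54, had entries in the PC3 METTL3 list alone. The HNRNPU entry had a fold of 6.83 and a summit 1360 bp before the start, and it ranked 494 of 7453. The SRSF11 entry had a fold of 6.52 and a summit 2406 bp before the start, and it ranked 749. Both lay inside another protein-coding locus. The HNRNPU summit was in LOC124904588, and the SRSF11 summit was in LRRC40, 2289 bp from the start of that gene on the other strand. Counted for the nearest gene only, where a gene that holds the summit comes first, neither entry went to the splicing gene. The HNRNPU summit was 1421 bp from the nearer end of LOC124904588, farther than from the HNRNPU start. By this count HNRNPL alone kept its METTL3 entry.

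**Figure D2:**
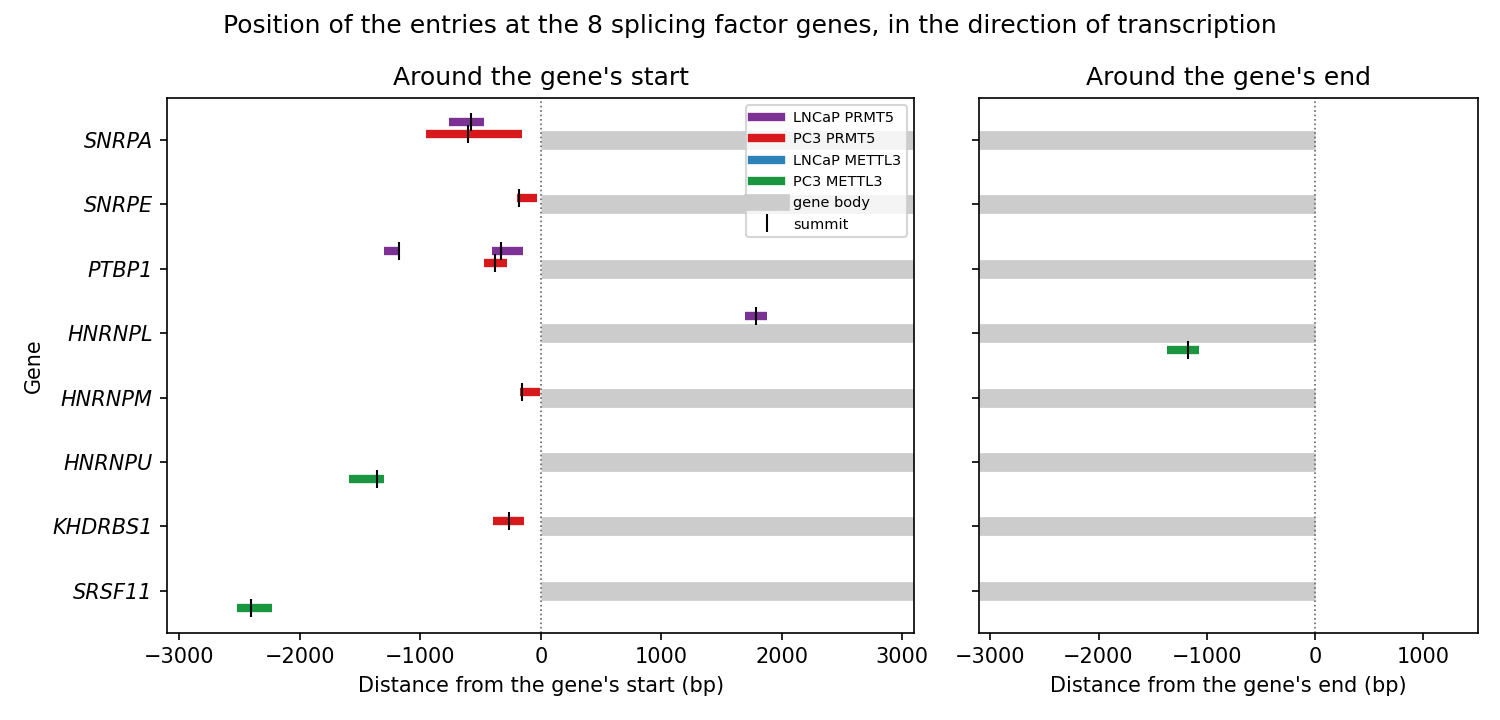
The 12 entries are drawn as coloured bars by peak list, with black ticks at the summits, against the distance in bp from the gene's start (left) or end (right) in the direction of transcription; grey bars are gene bodies. PRMT5 entries at 5 genes lie before the start, with 7 of the 9 PRMT5 summits within 1 kb of it, while the METTL3 summits lie 1360 and 2406 bp before a start or near the end of HNRNPL.

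Of the 9 PRMT5 summits, 8 were before the gene's start and 7 were within 1 kb of it. Of the 3 METTL3 summits, 2 were before the start and 0 were within 1 kb of it. Over whole lists, 22.6% of LNCaP PRMT5 entries, 11.9% of PC3 PRMT5 entries and 1.15% of PC3 METTL3 entries lay within 1 kb of an annotated protein-coding start. Those shares take in entries far from any gene. Of the entries within 3 kb of such a start, 221 of 262, 197 of 285 and 86 of 228 lay within 1 kb, in the same order of lists. These whole-list values use any annotated start, while the counts at the 8 genes use the gene's outermost start. By any annotated start the HNRNPL PRMT5 summit, at 572 bp, would also be within 1 kb, and no METTL3 summit would. The 8 genes were chosen partly by this distance and each antibody has few entries at them, so these counts only describe the entries. The rule allowed up to 3 kb, and the summit nearest that limit was the one at SRSF11. Beyond the rule, the closest entry to any of the genes was 18.4 kb from HNRNPM, of fold 5.60 in the PC3 PRMT5 list. Of the 32 pairs of gene and list, 21 had no entry. In 17 of these the nearest entry on the chromosome was at least 69.7 kb from the gene, with a median of 582 kb. The other 4 were the genes of chromosome 19 in the LNCaP METTL3 list, which had no entry on that chromosome.

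The 3 METTL3 entries had the narrowest form their list holds. Each was 292 bp wide, the smallest width in the PC3 METTL3 list, shared by 72.9% of its entries. The HNRNPU and SRSF11 entries had the same −log10 p, 10.4, as 394 entries did, themselves included. The HNRNPL entry shared both its fold and its −log10 p with 515 entries of the list, itself included, among them the one at RBMX, another hnRNP gene. The PRMT5 entries ranged from 122 bp at PTBP1 in LNCaP to 800 bp at SNRPA in PC3. Such a form was not limited to METTL3. The HNRNPM entry, also of the smallest width in its PC3 PRMT5 list, ranked 1221 of 1661. It shared its fold and −log10 p with 26 entries, itself included.

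**Figure D3:**
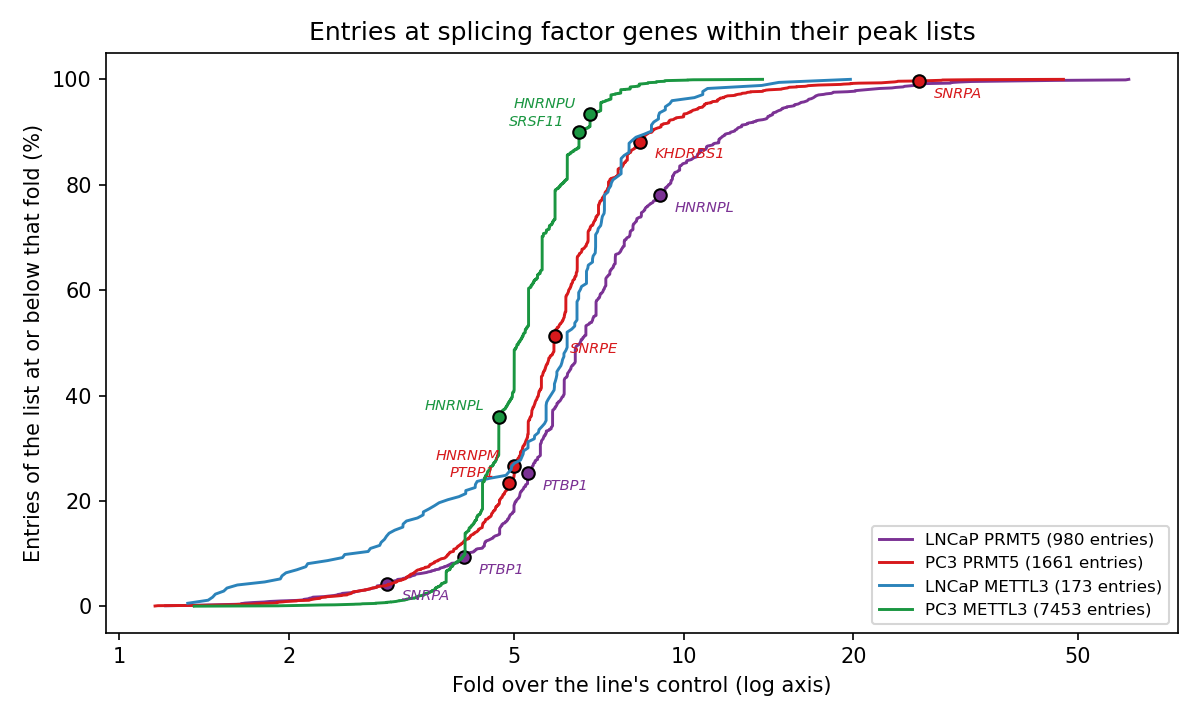
Each line gives, for 1 peak list, the percent of its entries at or below a fold over the control (log axis), and the points mark the entries at the splicing factor genes. SNRPA in PC3 PRMT5 lies at the top of its list and SNRPA in LNCaP PRMT5 near the bottom of its list, and the steps in the PC3 METTL3 line come from entries with the same fold.

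Against entries at starts in general, those at the 8 genes covered a wide range. PRMT5 entries within 3 kb of a protein-coding start had a median fold of 7.51 in LNCaP (interquartile range 6.11 to 10.6) and 6.14 in PC3 (5.19 to 7.82). In LNCaP, HNRNPL was above that median, and PTBP1 and SNRPA were below the lower quartile. In PC3, SNRPA and KHDRBS1 were above the upper quartile, SNRPE was between the quartiles, and HNRNPM and PTBP1 were below the lower one. METTL3 entries at starts in PC3 had a median fold of 5.01 (4.43 to 5.92), below the values of HNRNPU and SRSF11. Entries within 3 kb of an annotated start were found at 1.79% of the protein-coding genes with a start in the table in LNCaP PRMT5, 1.75% in PC3 PRMT5 and 1.56% in PC3 METTL3.

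The 8 genes lay on chromosomes 1 and 19, 4 on each. Chromosome 19 holds 7.24% of protein-coding genes, and it held 8.06% of the LNCaP PRMT5 entries, 11.7% of the PC3 PRMT5 entries, 0 of the 173 LNCaP METTL3 entries and 1.49% of the PC3 METTL3 entries. Chromosome 1 held between 7.96% and 9.31% of the entries of each list and holds 10.3% of protein-coding genes. The genes were from 9.55 kb (SNRPE) to 47.4 kb (SRSF11) long, where the median protein-coding gene was 24.1 kb. In each list the share of genes with an entry was lower among genes up to the length of SRSF11 than among all genes. The reason was not tested. Among genes no longer than SRSF11, 4.53% had a PC3 METTL3 entry, beside 11.6% of genes of any length, and 0.141% had a LNCaP METTL3 entry. For PRMT5 the shares among these genes were 2.63% in LNCaP and 3.97% in PC3.

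The start windows of the 8 genes were searched for short motifs on both strands. The RefSeq table gives 11 windows for them, from 250 bases before to 50 after a start, with 2 windows each for PTBP1, HNRNPL and SRSF11. Their GC content was 53.7% to 82.7%, and the ratio of observed to expected CpG was 0.676 to 1.19. The 22198 windows of protein-coding genes had a median GC content of 62.3% and a median CpG ratio of 0.737, and 10 of the 11 windows were above that CpG ratio. The E-box CACGTG was found in HNRNPM, 42 bases before the start, and in KHDRBS1, 248 and 225 bases before it. All 3 matches lie in the capitals printed above, inside a PC3 PRMT5 entry. CACGTG was thus in 2 of the 11 windows, and it is in 8.34% of protein-coding windows and 7.26% of all 35116 windows of the table.

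An entry reached 4 of the 11 windows, and most matches of the other motifs lay outside the entries. The GC box GGGCGG was found in 8 of the 11 windows, at 6 genes, and in 56.3% of protein-coding windows (45.0% of all). CCAAT was found in 5 windows, at 4 genes, and in 34.7% of protein-coding windows (34.6% of all). At PTBP1, 2 GGGCGG matches and 1 CCAAT match lay inside the LNCaP PRMT5 entry. CCGGAAG, the core of ETS factor sites, was found in 2 windows, at SNRPE and PTBP1, and in 12.8% of protein-coding windows (10.3% of all). The palindrome bound by NRF1 was found in 1 window, at KHDRBS1, 187 bases before the start and inside its entry, and in 1.5% of protein-coding windows (1.24% of all). TATAAA was found in 1 window, at SRSF11, and in 9.47% of protein-coding windows (11.5% of all). TGACGTCA and TGANTCA were found in 0 of the 11 windows and in 2.26% and 6.15% of protein-coding windows (1.85% and 7.71% of all). No motif searched contains another, and the matches describe the letters only.

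The 8 genes are part of a wider set of 106 splicing genes in 9 lists, written from family membership with earlier results of these data known. The 8 were picked for having an entry, so the other 98 are counted apart. Of these 98, 10 had an entry in any of the 4 lists, 10.2%, where 16.7% of all protein-coding genes did. With the 8 included the count was 18 of 106, 17.0%. By library, 3 of the 98 had a LNCaP PRMT5 entry, 2 a PC3 PRMT5 entry, 7 a PC3 METTL3 entry and 0 a LNCaP METTL3 entry. The first 3 counts are 3.06%, 2.04% and 7.14%, beside 3.08%, 4.59% and 11.6% of all protein-coding genes. With the summit required within 3 kb of an end, each of those 3 lists had an entry at 1 of the 98, 1.02%, beside 1.92%, 2.42% and 2.48% of all protein-coding genes. With the 8 included, the counts inside or near a gene were 6, 7 and 10 of 106, and those at ends were 4, 6 and 4. Neither share is free of the choice of genes: the 106 include genes picked for an entry, which raises the share, and the 98 lack them, which lowers it. Nothing about splicing genes as a class is read from either.

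**Figure D4:**
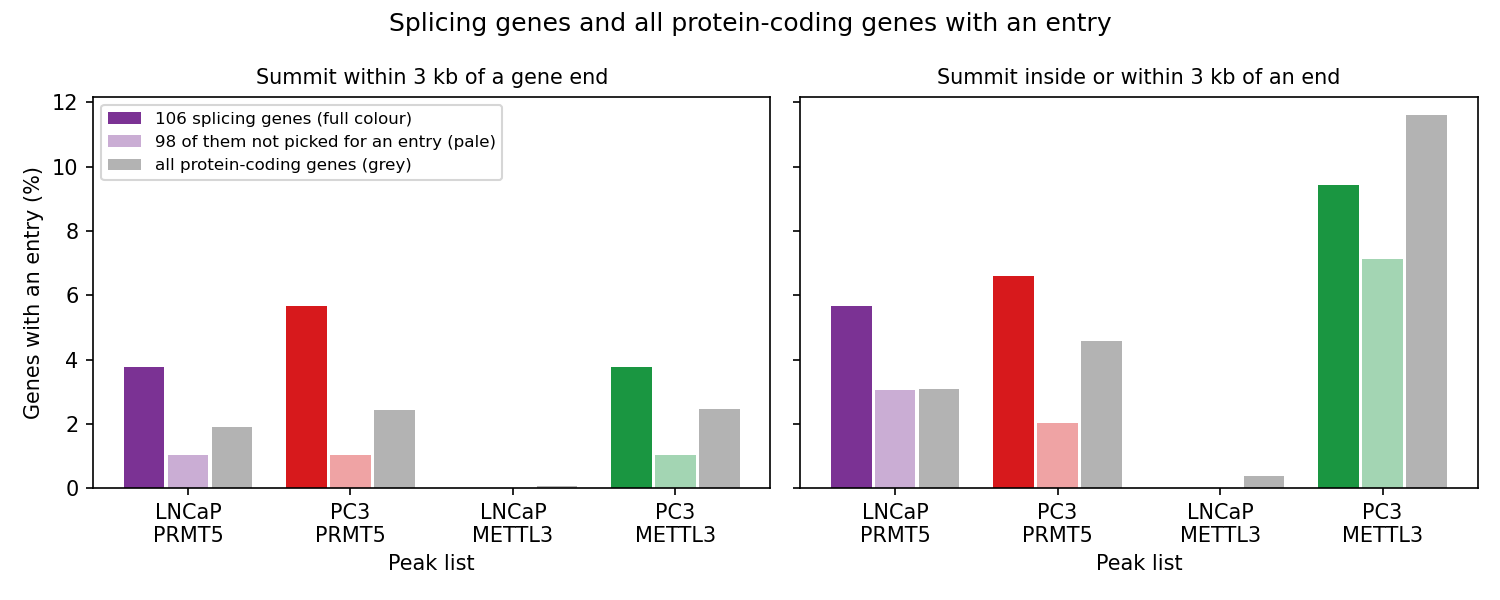
The percent of genes with an entry is given by peak list for the 106 splicing genes (full colour), for the 98 of them that are not among the 8 genes picked for an entry (pale colour) and for all protein-coding genes (grey), with the summit within 3 kb of a gene end (left) or also anywhere inside the gene (right). The 8 picked genes raise the full bars and their removal lowers the pale ones, and the grey bars lie between or above them, as for PC3 PRMT5 on the right, with 6.60% of the 106, 2.04% of the 98 and 4.59% of all protein-coding genes.

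Of the 28 hnRNP genes, the longest of the lists, 6 had an entry at an end in any list, where 5.78% of all protein-coding genes did. They were the 4 described above, which were picked for it, HNRNPH2 and RBMX. HNRNPH2, which encodes a G-run-binding hnRNP, had PRMT5 entries of fold 9.46 in LNCaP and 5.64 in PC3, with summits 51 and 44 bp before its start. GLA, the gene of the lysosomal enzyme alpha-galactosidase A, runs the opposite way from a start 246 and 253 bp from these summits, which also lay inside the read-through locus RPL36A-HNRNPH2. RBMX had a PC3 METTL3 entry of fold 4.70, with its summit 1253 bp before the gene's end. Of the 14 SR and SR-related genes SRSF11 had an entry, and of the 5 STAR genes KHDRBS1 did.

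Among spliceosome genes, entries at ends were found at SNRPA, 1 of 3 U1 genes, and SNRPE, 1 of 8 Sm genes, both picked for an entry. They were found at 0 of 7 LSm, 0 of 14 U2, 0 of 17 U5 and tri-snRNP and 0 of 10 PRP19-complex genes. In any list 5.78% of all protein-coding genes had an entry at an end, so nothing is read from these small counts. SNRPB, SNRPD1 and SNRPD3, whose products PRMT5 methylates, had no entry in any of the 4 lists. Only 16.7% of all protein-coding genes had one in any list, so nothing about these genes is read from it. Deep inside a gene, U2AF2, which encodes the large subunit that reads the polypyrimidine tract, had PRMT5 entries of fold 4.90 in LNCaP and 19.8 in PC3. Its summits, 4241 and 4220 bp before the gene's end, were at almost the same place. The PC3 entry ranked 14 of 1661, and the LNCaP entry 816 of 980. TXNL4A, which encodes a small U5 protein, had a LNCaP PRMT5 entry of fold 9.55 inside the gene. TXNL4A was named after its values were seen. SNRPN, LSM6, SNRPB2, SART3, CRNKL1 and CTNNBL1 had a PC3 METTL3 entry inside the gene, with folds from 3.80 at SART3 to 5.92 at CRNKL1.

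By which lists held an entry, SNRPA and PTBP1 were most like U2AF2 and HNRNPH2, with entries in both PRMT5 lists and in no METTL3 list. That pattern was shared by 227 protein-coding genes, 1.13%. Counting genes with or without METTL3 entries too, 2 of the 8 genes were in both PRMT5 lists, where 1.39% of all protein-coding genes were. The 8 were picked for an entry, so these shares have unlike bases. Of the 3350 protein-coding genes with an entry in any list, 278 were in both PRMT5 lists. SNRPE, HNRNPM and KHDRBS1 had entries in PC3 PRMT5 alone, as 481 genes did, 2.40%. HNRNPU and SRSF11 had them in PC3 METTL3 alone, as 2065 genes did, 10.3%. The pattern of HNRNPL, LNCaP PRMT5 with PC3 METTL3, was found in 52 genes, 0.260%, and in no other of the 106. Likeness here is presence or absence over 4 lists, and says nothing of strength.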

How the data were processed

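Peak lists of 4 libraries were used, METTL3 and PRMT5 in LNCaP and PC3, with 1 library per group. The authors' tools, per the submitters' processing notes, were MACS2 2.1.0, Bowtie 1.1.1, Trimmomatic 0.33, bcl2fastq 2.17 and ChIPseeker, with the build hg38. The sources used here do not say how these were set, how duplicates were treated or whether reads were shifted. Each deposited entry has a score, a fold (a ratio over the control of the line), −log10 p and −log10 q and a summit, all the authors' values; the score was not used further. Read depth is unknown.

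Only entries of chromosomes 1 to 22, X and Y entered, 980 of 1084 for LNCaP PRMT5, 1661 of 1721 for PC3 PRMT5, 173 of 199 for LNCaP METTL3 and 7453 of 7500 for PC3 METTL3. Genes came from RefSeq for GRCh38.p14, with the same primary coordinates as hg38. Strand and starts came from the RefSeq promoter table, which covered 15841 of the 20033 protein-coding genes; all 8 genes matched. A gene had an entry when the summit was inside it or within 3 kb of an end, and entries were shared when they overlapped by at least 1 bp. The members, gene lists and motifs were chosen with earlier results of these data known. Named genes are all 8 members, non-members of the lists with an entry at an end (up to 5 per library by fold), genes of the same presence pattern and neighbours within 3 kb; TXNL4A falls outside this rule. Of 8 luminal or PC3 marker genes, KLK2, a LNCaP marker, had an entry, in PC3 METTL3. In that list 11.6% of all protein-coding genes had one, so nothing is read from this count. Peak lists are no check of a line's identity. Assignment within 3 kb of a gene end was tested on simulated summits placed below the gene's lower coordinate. Assignment inside genes and to annotated starts was not tested. Python 3.11.15, pandas 2.3.3 and NumPy 2.4.6 were used. No statistical test was run.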

Additional observations from a re-analysis of the deposited data

How the results depend on the processing

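The counts of the 8 genes and of the 106 splicing genes were recomputed with windows of 1, 5 and 10 kb, ends or starts only, a −log10 q of at least 3, a fold of at least 5, any base of an entry in place of the summit, and the nearest gene only. Of 110 recomputed values, 97 stayed within 1.5 times, a limit that a fall from 3 to 2 still meets. Some of these could not have moved, so that count does not measure robustness. The LNCaP METTL3 counts were 0, which a stricter setting can only repeat. Wider windows can only add genes, and a palindromic motif matches both strands alike. At a −log10 q of at least 3, 2 of the 8 genes kept a LNCaP PRMT5 entry (without SNRPA). For PC3 PRMT5, 4 did (without HNRNPM), and for PC3 METTL3, 2 did (without HNRNPL). Any entry was kept by 7 of the 8. A fold of at least 5 gave the same counts by list, without SNRPA, PTBP1 and HNRNPL in turn, and all 8 kept an entry. For PC3 METTL3, 1 of the 8 genes (HNRNPL) had an entry with a 1 kb window and 1 (HNRNPL) with the nearest gene only, in place of 3. With the nearest gene only, there were 7 pairs of gene and list in place of 11, and 5 genes with any entry in place of 8, without SNRPA, HNRNPU and SRSF11. Of the 106, PC3 METTL3 counts were 4 at ends, 2 at starts, and 6 at either stricter threshold, in place of 10. Over all lists they were 10 at ends and 9 at starts, in place of 18. The 2 genes with overlapping PRMT5 entries in both lines, SNRPA and PTBP1, were 0 when at least 50% of both entries had to overlap and 1 (PTBP1) at a −log10 q of at least 3. Searched on the gene's strand only, TATAAA was found in 0 genes in place of 1. No replicate could be left out. No paired analysis was possible because each group had 1 library. Unknown read depth limits every missing entry.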
